A study of Mus musculus with 6 samples.

Results

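The genes described here are the 43 mouse genes for Wnt ligands, their receptors and coreceptors, and their secreted antagonists, out of 24091 genes in the count table. They were chosen by symbol, with earlier results of these data known: 19 Wnt ligands, 10 Frizzled receptors, the coreceptors Lrp5 and Lrp6, the receptors Ror1, Ror2 and Ryk, 5 secreted Frizzled-related proteins (Sfrp1, Sfrp2, Sfrp4, Sfrp5 and Frzb, which is also called Sfrp3), and 4 Dickkopf genes. RNA was sequenced from whole mouse prostate in 6 libraries, 2 in each of 3 groups. The first group, called 12Q, was prostate tumors of males with a humanised allele coding for 12 glutamines in a polyglutamine tract, and the second, called 48Q, was tumors of males in which that allele coded for 48 glutamines. Both tumor groups also carried Ctnnb1(Ex3)L/wt, which is 1 β-catenin allele whose exon 3 can be deleted by Cre, and PBCre-4, which drives Cre from a probasin promoter in prostate epithelium. Normal prostate from wild-type mice (WT) made up the remaining group, which had neither the humanised allele, nor the β-catenin allele, nor Cre, so these differences between the tumors and WT cannot be told apart. No age or count of animals is in the labels used here, and nothing states that replicates were separate animals. The p-values thus rest on a spread between samples that may not be one between animals. That spread was larger than counting error: the chi-square of replicate counts per degree of freedom was 183 in WT, 263 in 12Q and 40.1 in 48Q.

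Wnt proteins are secreted, lipid-modified ligands that bind Frizzled receptors on nearby cells. Together with the coreceptors Lrp5 and Lrp6 they protect β-catenin from degradation, and β-catenin then acts with TCF/LEF factors on transcription. Other Wnt signals run through Ror1, Ror2 or Ryk without β-catenin. Secreted Frizzled-related proteins bind Wnts outside the cell, and Dickkopf proteins bind the LRP coreceptors. Loss of exon 3 removes the residues that mark β-catenin for degradation, so in the cells with that deletion the pathway is active downstream of ligand and receptor. In the prostate, Wnt ligands and antagonists are made by both epithelium and stroma.

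Library totals ranged from 26416181 to 28559546 counts. Levels are given as CPM, counts scaled to the library total after TMM (trimmed mean of M-values) normalization. Levels of different Wnt ligand, receptor and antagonist genes are compared only as RPKM, which is CPM divided by the gene length in kilobases that the table gives. Lists of cell type markers are summed as CPM, in which long genes weigh more. Between genotypes, log2 fold changes are given with a standard error derived from edgeR's quasi-likelihood F statistic, and p-values were adjusted over all 15050 genes tested, with a threshold of 0.05. The probasin gene Pbsn, a product of prostate secretory cells, was at 28214 and 16144 CPM in WT, at 3954 and 2248 CPM in 48Q tumors, and at 3.33 and 5.14 CPM in 12Q tumors, so this defining marker was near absent in 12Q. Krt18, a luminal keratin, was between 577 and 2458 CPM in all 6 libraries. The samples were bulk tissue, in which fewer cells of a type and less RNA per cell cannot be told apart.

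Of the 43 genes, 33 had enough counts to be tested. Several ligands and the Dickkopf antagonist Dkk2 were higher in tumors than in WT, while Sfrp1, Ror1 and Sfrp4 were nearly absent from 12Q tumors and present in 48Q tumors. In 12Q tumors against WT, 8 of 33 rose (11.2% of all tested genes rose), 6 fell (11.2% of all tested genes fell) and 19 did not pass. With 48Q tumors against WT, 4 of 33 rose (3.95% of all tested genes rose), 0 fell (1.23% of all tested genes fell) and 29 did not pass. The count of 0 is from edgeR, and DESeq2 and limma-voom also gave 0, while 1 gene was lower at an unadjusted p under 0.05. Comparing 12Q with 48Q directly, 1 was higher in 12Q (1.01% of all tested genes), 4 were lower (3.16% of all tested genes) and 28 did not pass. Sfrp4, among those lower, was tested only because of its counts in 48Q, the group where it was higher. The median log2 fold change of the 33 genes was 0.21 in 12Q against WT, or 0.12 with few-count genes at their bounds, beside -0.01 over all tested genes. It was 1.11 in 48Q against WT, beside 0.02, and -0.32 in 12Q against 48Q, beside 0.00. Both tumor comparisons use the same WT libraries and are therefore not independent of each other.

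These counts moved with single libraries. In 12Q against WT the number called was 14 in all, 6 without 12Q replicate 2 or without WT replicate 1, 8 without either 48Q library, 10 without WT replicate 2 and 12 without 12Q replicate 1. The 4 calls of 48Q against WT became 0 without WT replicate 1, a setting in which edgeR called 0 genes of the whole table and 11 of the Wnt genes were higher at an unadjusted p under 0.05. They became 1 without 48Q replicate 2 and 2 without 48Q replicate 1, and rose in number to 7 without either 12Q library. The 5 calls of 12Q against 48Q became 0 without 12Q replicate 1 (5 higher and 8 lower in edgeR at an unadjusted p under 0.05), 0 without 12Q replicate 2 (4 higher and 12 lower), 1 without 48Q replicate 1 and 2 without 48Q replicate 2. When counts were scaled by library totals alone, 10 rose and 4 fell in 12Q against WT, 12 rose and 0 fell in 48Q against WT, and 0 were higher and 4 lower in 12Q than in 48Q. Over all 15050 tested genes, that scaling called 3266 higher and 1032 lower in 12Q, beside 1687 and 1683 with TMM. In 48Q it called 1921 higher and 83 lower, beside 595 and 185. Between 12Q and 48Q it called 62 higher and 379 lower, beside 152 and 475. DESeq2 called 11 between 48Q and WT, and 12 between the tumor genotypes. Over all tested genes it called 1561 higher and 979 lower in 48Q than in WT, and 920 higher and 1561 lower in 12Q than in 48Q. None of the calls of these genes changed direction under the 13 alternatives, with 12 for Sfrp4 in 12Q against WT, which was not tested with the compared groups only.

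**Figure D1:**
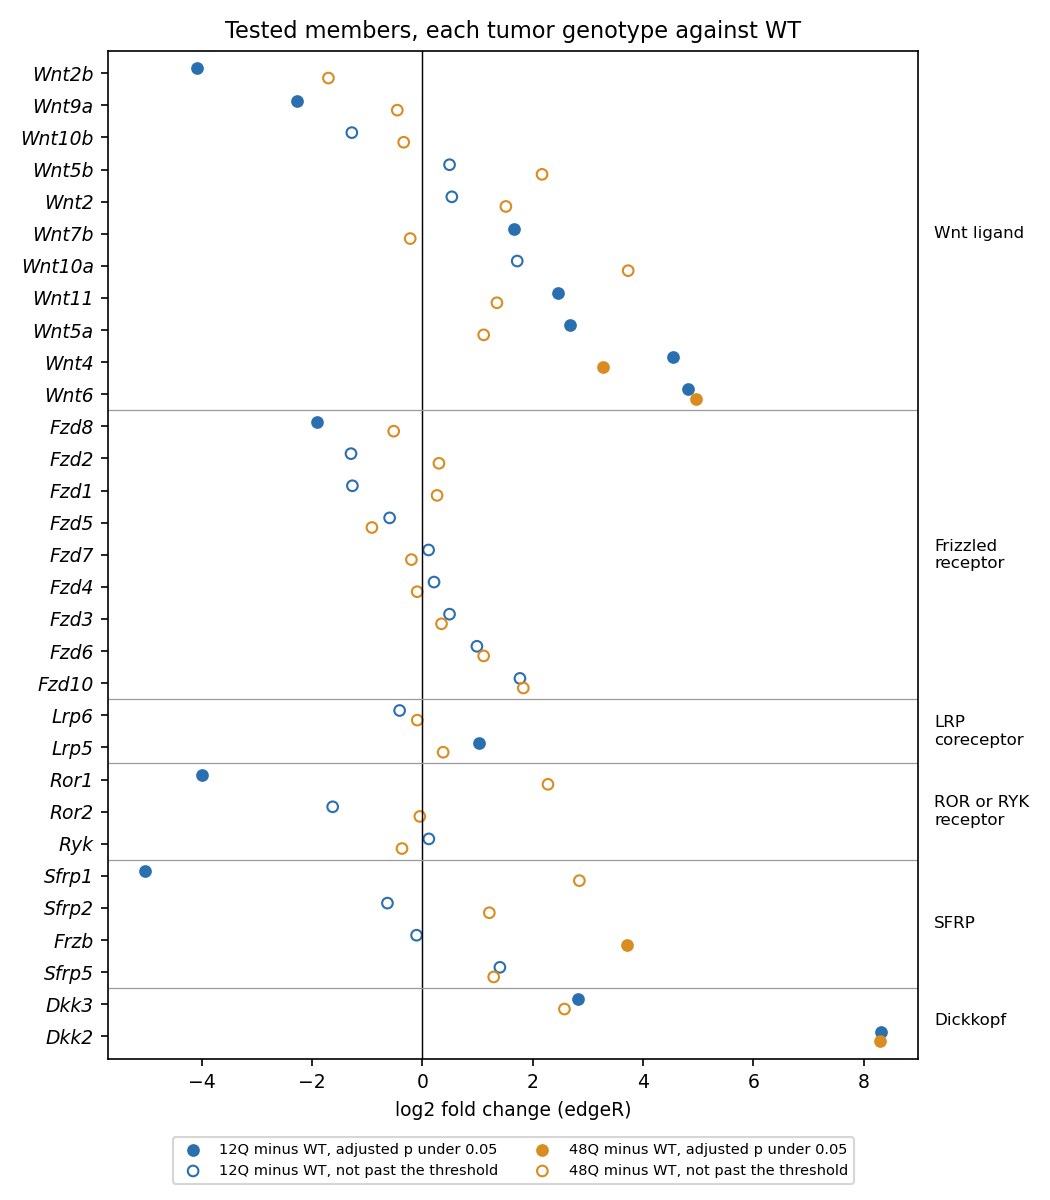
Fitted log2 fold changes (x axis, edgeR) of 31 of the 33 tested genes (y axis, grouped by role) in 12Q tumors minus WT (blue) and 48Q tumors minus WT (orange), with filled points for an adjusted p under 0.05; Sfrp4 and Wnt16, which had 3 counts or fewer in at least 1 group, are not drawn. Dkk2 stands farthest to the right in both comparisons, at 8.32 and 8.29, and Sfrp1 and Ror1 lie left of 0 in 12Q and right of 0 in 48Q, where neither passed.

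The start regions of 5 of these genes are shown as examples from those that passed: Dkk2, Wnt4 and Wnt6 were higher in both kinds of tumor, Wnt11 was higher in 12Q tumors and Frzb was higher in 48Q tumors. Each is the RefSeq window from 250 bases before to 50 bases after the gene's start on GRCm38.p6, 5′ to 3′ on the gene's strand. Capitals mark a match to CTTTGAA or CTTTGAT or CTTTGTA or CTTTGTT on either strand, which are forms of the TCF/LEF motif; no other motif was searched. These letters stood in 5 of the 32 windows (15.6%) of the 29 genes with an entry, those of Dkk1, Fzd7, Wnt11, Wnt3 and Wnt5b, beside 16.9% of all 32851 windows of 300 bases. The Wnt11 window shown holds ATCAAAG, the reverse complement of 1 of these forms, starting 51 bases before the start. Wnt11 has another window, chr7:98838595-98838894, which holds no match, and the one with the match was chosen for display. The windows of Dkk2, Wnt4, Wnt6 and Frzb hold no match, which says only that these letters are not in these windows. Those of Ror1, Wnt2b and Wnt9a, which also passed in a comparison but are not shown, hold no match either. Median GC content was 67.2% over the 32 windows and 52.7% over all windows.
Dkk2, chr3:132085042-132085341, plus strand: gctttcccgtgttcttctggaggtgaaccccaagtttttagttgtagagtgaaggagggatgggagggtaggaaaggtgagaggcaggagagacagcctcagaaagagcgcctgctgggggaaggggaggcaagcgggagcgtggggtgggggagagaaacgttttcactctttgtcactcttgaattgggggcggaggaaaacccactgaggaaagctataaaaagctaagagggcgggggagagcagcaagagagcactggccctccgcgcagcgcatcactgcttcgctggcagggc
Wnt4, chr4:137277385-137277684, plus strand: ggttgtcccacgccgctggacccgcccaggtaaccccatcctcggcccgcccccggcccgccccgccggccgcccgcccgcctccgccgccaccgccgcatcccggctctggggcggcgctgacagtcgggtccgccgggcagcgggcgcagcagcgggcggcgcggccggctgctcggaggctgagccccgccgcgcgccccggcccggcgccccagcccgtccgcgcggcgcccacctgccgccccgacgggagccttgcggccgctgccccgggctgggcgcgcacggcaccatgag
Wnt6, chr1:74771642-74771941, plus strand: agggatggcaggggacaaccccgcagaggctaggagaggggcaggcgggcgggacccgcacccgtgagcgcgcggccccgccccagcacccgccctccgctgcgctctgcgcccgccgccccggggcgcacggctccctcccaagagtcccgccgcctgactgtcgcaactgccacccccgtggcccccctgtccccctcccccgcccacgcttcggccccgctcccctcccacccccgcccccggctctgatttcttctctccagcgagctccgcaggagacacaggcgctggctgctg
Wnt11, chr7:98834862-98835161, plus strand: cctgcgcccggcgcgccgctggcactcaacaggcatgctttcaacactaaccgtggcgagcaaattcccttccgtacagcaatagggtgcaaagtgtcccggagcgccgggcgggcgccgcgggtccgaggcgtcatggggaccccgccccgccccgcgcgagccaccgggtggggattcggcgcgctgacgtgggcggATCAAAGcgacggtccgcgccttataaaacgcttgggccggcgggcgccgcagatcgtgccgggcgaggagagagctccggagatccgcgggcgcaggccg
Frzb, chr2:80447347-80447646, minus strand: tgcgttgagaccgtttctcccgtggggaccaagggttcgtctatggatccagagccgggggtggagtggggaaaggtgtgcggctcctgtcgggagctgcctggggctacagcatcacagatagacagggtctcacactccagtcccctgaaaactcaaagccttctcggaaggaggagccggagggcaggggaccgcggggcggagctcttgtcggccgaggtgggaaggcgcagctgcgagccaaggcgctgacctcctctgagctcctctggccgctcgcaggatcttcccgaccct

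Among the 19 ligand genes, 12 were tested. In 12Q tumors 5 rose and 2 fell against WT (11.2% each way over all tested genes), and in 48Q tumors 2 rose and 0 fell (3.95% and 1.23%). Between the tumor genotypes, 1 was higher and 0 were lower in 12Q than in 48Q (1.01% and 3.16%). The count of 0 against WT is from edgeR, and DESeq2, limma-voom and an unadjusted p under 0.05 also gave 0. For 12Q against 48Q, DESeq2 called 3 higher and 2 lower, and limma-voom called 2 higher and 1 lower. At an unadjusted p under 0.05 in edgeR, 3 were higher and 5 lower. Wnt4 (chr4:137277635-137299501), a ligand best known from kidney and gonad development and from mammary branching, was at 134 and 163 CPM in 12Q, 54.3 and 68.8 CPM in 48Q, and 3.96 and 8.67 CPM in WT. All 4 tumor libraries lay above both WT libraries. The log2 fold change was 4.55 in 12Q (SE 0.44, 23.5-fold, edgeR adjusted p = 0.0036) and 3.28 in 48Q (SE 0.41, 9.71-fold, edgeR adjusted p = 0.0182). Both 12Q libraries also lay above both 48Q libraries, but that difference of 1.27 did not pass in edgeR (adjusted p = 0.106), while DESeq2 and limma-voom called it. The 12Q call held under all 13 alternatives, with 5.22 without WT replicate 2. The 48Q call was lost without 48Q replicate 2 (edgeR adjusted p = 0.0609) and without WT replicate 1 (0.08), and its value was 3.95 without WT replicate 2.

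Wnt6 (chr1:74771892-74785319), an epithelial ligand of the ectoderm, was at 23.8 and 43.6 CPM in 12Q, 39.4 and 35.4 CPM in 48Q, and 0.417 and 1.95 CPM in WT. The tumor genotypes overlapped, and all 4 tumor libraries lay above WT. Wnt6 rose by a log2 fold change of 4.81 in 12Q (SE 0.72, 28-fold, edgeR adjusted p = 0.0092) and of 4.96 in 48Q (SE 0.72, 31.1-fold, edgeR adjusted p = 0.025). WT replicate 2 was 4.66-fold above WT replicate 1, and the 12Q value was 4.12 without WT replicate 1 and 6.32 without WT replicate 2, still past the threshold. The 48Q call was lost without WT replicate 1 (4.26, edgeR adjusted p = 0.0831), without 48Q replicate 1 (0.0588) and without 48Q replicate 2 (0.0626), and its value was 6.46 without WT replicate 2. Wnt10a, which stands 6.7 kb from Wnt6 on the same strand and is known from hair and tooth development, was at 1.63 and 6.78 CPM in 12Q, 20.5 and 13.5 CPM in 48Q, and 0.678 and 1.86 CPM in WT. Both 48Q libraries were above the other 4, with a log2 fold change of 3.73 against WT that did not pass in edgeR (adjusted p = 0.0615). DESeq2 called Wnt10a higher in 48Q than in WT, and limma-voom did not.

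Wnt5a (chr14:28505473-28525515), the best-known ligand of the β-catenin-independent branch, was at 79.1 and 152 CPM in 12Q, 37.7 and 40.4 CPM in 48Q, and 14.1 and 22.0 CPM in WT. The 3 groups did not overlap. Wnt5a rose in 12Q by 2.68 on the log2 scale (SE 0.40, 6.39-fold, edgeR adjusted p = 0.00889), a call kept under all 13 alternatives. The 48Q value of 1.11 (edgeR adjusted p = 0.137) and the 12Q minus 48Q value of 1.56 (0.0694) did not pass, while DESeq2, though not limma-voom, called the latter. Its paralog Wnt5b was at 4.81 and 4.36 CPM in 12Q, 15.8 and 13.5 CPM in 48Q, and 2.03 and 4.47 CPM in WT. Thus the highest Wnt5b libraries were those of 48Q, where the log2 fold change against WT was 2.17 without passing in edgeR (adjusted p = 0.0583). DESeq2 and limma-voom called Wnt5b higher in 48Q than in WT, and DESeq2 called it lower in 12Q than in 48Q.

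Wnt7b (chr15:85535437-85581821), an epithelial ligand that signals to neighbouring mesenchyme in several organs, was at 97.8 and 184 CPM in 12Q, 37.1 and 39.9 CPM in 48Q, and 52.9 and 36.7 CPM in WT. Both 12Q libraries lay above the other 4, and 48Q overlapped WT. Wnt7b rose in 12Q against WT by 1.65 on the log2 scale (SE 0.36, 3.15-fold, edgeR adjusted p = 0.0247) and was higher in 12Q than in 48Q by 1.88 (SE 0.36, 3.67-fold, edgeR adjusted p = 0.0466). The 48Q minus WT value was -0.22 (edgeR adjusted p = 0.733). The call against WT was lost without 12Q replicate 2 (1.13, edgeR adjusted p = 0.0667), without WT replicate 1 (0.0556) and without WT replicate 2 (0.0946). The call against 48Q was lost when any 1 of the 6 libraries was left out, with edgeR adjusted p between 0.0516 (without 12Q replicate 1) and 0.282 (without 48Q replicate 1).

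Fewer reads stood behind the other 3 ligands that passed. Wnt11, known from kidney branching and cell movements in the embryo, was at 1.29 and 1.36 CPM in 12Q, 0.572 and 0.656 CPM in 48Q, and 0.209 and 0.265 CPM in WT. The groups did not overlap, and Wnt11 rose in 12Q by 2.46 on the log2 scale (SE 0.62, 5.5-fold, edgeR adjusted p = 0.0369). That call was lost when any 1 library was left out. It was also lost with no filter on low counts (edgeR adjusted p = 0.0527), the compared groups only (0.0966) and the replicate number as a block (0.0766). Wnt11 was tested through its counts in 12Q and 48Q, the groups where it was higher. Wnt2b fell in 12Q, with 0.148 and 0.0309 CPM beside 2.24 and 0.840 CPM in WT and 0.482 and 0.456 CPM in 48Q. Its log2 fold change in 12Q against WT was -4.08 (SE 0.96, edgeR adjusted p = 0.0307). Wnt2b did not pass with the compared groups only (edgeR adjusted p = 0.0595). It also did not pass without 12Q replicate 2 (-3.33), WT replicate 1 (-3.21), 48Q replicate 1 or 48Q replicate 2. The value was -5.40 without 12Q replicate 1. Wnt9a was at 0.370 and 0.650 CPM in 12Q, 1.51 and 2.11 CPM in 48Q, and 2.66 and 2.30 CPM in WT. Wnt9a fell in 12Q by 2.27 on the log2 scale (SE 0.59, edgeR adjusted p = 0.0405), a call lost when any 1 library was left out. It was also lost with library totals (edgeR adjusted p = 0.0793), the compared groups only (0.102) and the replicate number as a block (0.0631).

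Wnt2, a ligand of mesenchyme and vessels, was at 18.1 and 4.80 CPM in 12Q, 26.1 and 19.1 CPM in 48Q, and 3.44 and 12.3 CPM in WT, and passed in no comparison. Wnt16 had 0 counts in WT, 7 counts in 12Q and 285 in 48Q, so that it was at least 29.1-fold higher in 48Q than a floor of 3 counts per WT library allows, without passing in edgeR (adjusted p = 0.0592). DESeq2 and limma-voom called Wnt16 higher in 48Q than in WT and lower in 12Q than in 48Q, and it was tested only because of its 48Q counts. Wnt10b was between 0.0370 and 0.929 CPM in the 6 libraries. The 7 ligands without enough counts for a test were Wnt1, Wnt3, Wnt3a, Wnt7a, Wnt8a, Wnt8b and Wnt9b, each with at most 17 counts over all 6 libraries, and Wnt8a had 0.

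Summed over the 19 ligands, transcript levels were 98.9 and 149 RPKM in 12Q (124 ± 35.2, SD, n = 2), 81.8 and 76.5 RPKM in 48Q (79.1 ± 3.72, SD, n = 2), and 20.995 and 26.5 RPKM in WT (23.8 ± 3.91, SD, n = 2). The 3 groups did not overlap, and these sums were not tested. Their makeup also differed. Wnt7b led in both WT libraries with 57.1% and 31.4% of the sum, beside 22.4% and 28.1% in 12Q and 10.3% and 11.8% in 48Q. Wnt4 led in both 12Q libraries with 35.6% and 28.7%, and it made up 17.4% and 23.6% in 48Q and 4.95% and 8.56% in WT. Wnt6 made up 23.4% and 22.4% of the 48Q sums, 11.7% and 14.2% of the 12Q sums, and 0.963% and 3.55% of the WT sums.

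**Figure D2:**
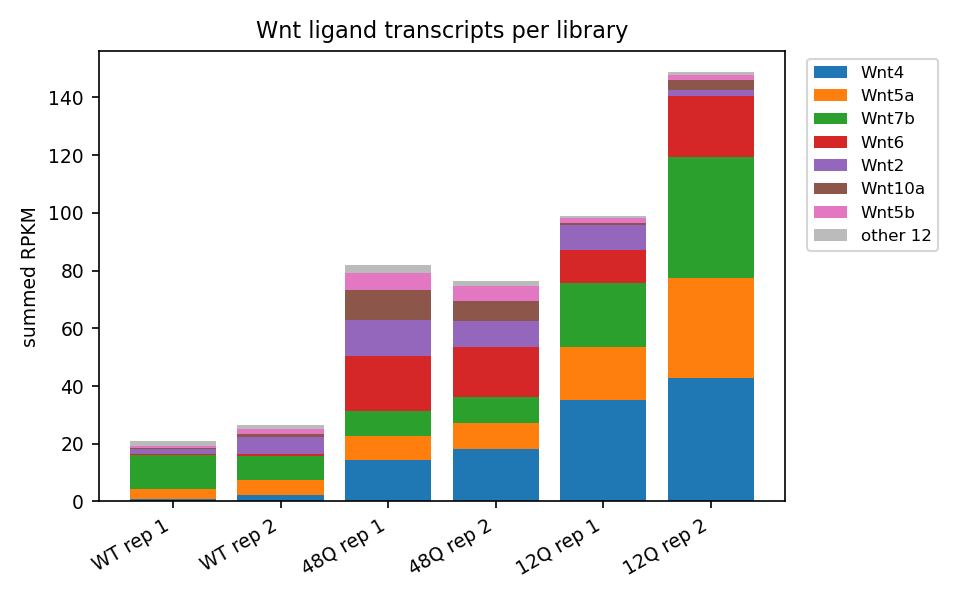
Summed RPKM of the 19 Wnt ligand genes (y axis, from 0) in each library (x axis), with each bar split by gene. The WT bars reach 20.995 and 26.5, the 48Q bars reach 81.8 and 76.5, and the 12Q bars reach 98.9 and 149, with Wnt7b the largest segment in WT and Wnt4 the largest in 12Q.

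Of the 10 Frizzled genes, 9 were tested, and Fzd9 with 19 counts in all was not. In 12Q against WT, edgeR called 0 higher and 1 lower, the latter 11.1% beside 11.2% of all tested genes each way. Limma-voom gave the same numbers, and DESeq2 and an unadjusted p under 0.05 each gave 1 higher and 2 lower. For 48Q against WT, and also for 12Q against 48Q, edgeR called 0 in both directions. The shares over all tested genes were 3.95% higher and 1.23% lower in the first, and 1.01% and 3.16% in the second. At an unadjusted p under 0.05, 1 rose and 1 fell in 48Q, and 2 were lower in 12Q than in 48Q; DESeq2 called Fzd6 higher in 48Q than in WT and Fzd1 and Fzd8 lower in 12Q than in 48Q, and limma-voom called 0. Fzd8 was at 2.92 and 1.83 CPM in 12Q, 6.38 and 6.13 CPM in 48Q, and 10.4 and 7.52 CPM in WT, and the groups did not overlap. The fall in 12Q was 1.92 on the log2 scale, from a log2 fold change of -1.92 (SE 0.45, edgeR adjusted p = 0.0307). That call was lost with library totals (edgeR adjusted p = 0.0544) and with the compared groups only (0.0908). It was also lost without 12Q replicate 2, 48Q replicate 1, 48Q replicate 2 or WT replicate 1.

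None of the other Frizzled receptors passed in edgeR or limma-voom, while DESeq2 also called Fzd6 higher and Fzd1 lower in 12Q than in WT. Fzd1 was at 15.7 and 25.7 CPM in 12Q, 69.3 and 50.6 CPM in 48Q, and 33.5 and 66.1 CPM in WT, with both 12Q libraries below the other 4 (log2 fold change -1.27 against WT, edgeR adjusted p = 0.0755). Fzd6, a receptor of planar cell polarity, was at 48.5 and 83.5 CPM in 12Q, 73.0 and 70.7 CPM in 48Q, and 33.0 and 33.5 CPM in WT. All 4 tumor libraries were above WT in Fzd6, with log2 fold changes of 0.99 (edgeR adjusted p = 0.0577) and 1.11 (0.0812). Fzd5, at 23.6 and 38.5 CPM in 12Q, 27.3 and 22.5 CPM in 48Q, and 51.7 and 42.1 CPM in WT, was below WT in all 4 tumor libraries without passing. Fzd10 was at 5.81 and 30.3 CPM in 12Q, 25.4 and 12.2 CPM in 48Q, and 7.20 and 3.40 CPM in WT, and its 12Q replicates were 5.21-fold apart.

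Fzd7, an epithelial and stem cell receptor, was at 59.7 and 58.1 CPM in 12Q, 49.8 and 45.1 CPM in 48Q, and 52.2 and 56.6 CPM in WT. Fzd3 was at 139 and 85.8 CPM in 12Q, 88.2 and 115 CPM in 48Q, and 95.5 and 64.2 CPM in WT, and Fzd4 was at 32.0 and 17.0, 19.3 and 20.4, and 21.9 and 20.4 CPM in the same order. For Fzd3 each pair of groups overlapped, and for Fzd4 the 12Q libraries spanned all of the others. Fzd2 was between 1.74 and 13.0 CPM. The sum over the 10 receptors was 54.2 and 67.1 RPKM in 12Q, 73.4 and 64.3 RPKM in 48Q, and 53.8 and 58.7 RPKM in WT, so 12Q overlapped both other groups.

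Of the LRP coreceptors, which are required for the β-catenin branch, Lrp5 (chr19:3584825-3686564) was at 175 and 204 CPM in 12Q, 118 and 124 CPM in 48Q, and 88.7 and 97.5 CPM in WT. The groups did not overlap. Lrp5 rose in 12Q by 1.03 on the log2 scale (SE 0.21, 2.04-fold, edgeR adjusted p = 0.0216), while the 48Q value of 0.38 (0.313) and the 12Q minus 48Q value of 0.65 (0.124) did not pass. DESeq2 called Lrp5 higher in 12Q than in 48Q, and limma-voom did not. The 12Q call was lost with the compared groups only (edgeR adjusted p = 0.0806). It was also lost without 12Q replicate 2, 48Q replicate 1, 48Q replicate 2 or WT replicate 1. Lrp6 was at 132 and 185 CPM in 12Q, 201 and 195 CPM in 48Q, and 235 and 187 CPM in WT, and passed in no comparison.

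Ror1 (chr4:100095791-100444806), a receptor tyrosine kinase-like protein that binds Wnt5a, was at 0.148 and 0.309 CPM in 12Q, 19.8 and 16.9 CPM in 48Q, and 2.14 and 5.39 CPM in WT. The 3 groups were apart, with WT between the tumor genotypes. Ror1 fell in 12Q against WT by 4.0 on the log2 scale (SE 0.66, edgeR adjusted p = 0.0118) and was lower in 12Q than in 48Q by a log2 difference of -6.28 (SE 0.71, 77.6-fold, edgeR adjusted p = 0.0205). The 48Q minus WT value of 2.28 did not pass (edgeR adjusted p = 0.0734). The call against WT held under all 13 alternatives, at -4.63 without 12Q replicate 2 and -3.18 without WT replicate 2. The call against 48Q was lost without 12Q replicate 1 (0.0594), 12Q replicate 2 (-6.90, 0.0634) or 48Q replicate 1 (0.0796). Ror2, also a Wnt5a receptor, was between 0.814 and 7.52 CPM and passed in no comparison. Ryk, a Wnt receptor with an inactive kinase domain, was at 75.0 and 80.0 CPM in 12Q, 54.9 and 55.7 CPM in 48Q, and 77.5 and 65.4 CPM in WT, also without passing.

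Of the 5 secreted Frizzled-related antagonists, Sfrp1, Sfrp4 and Frzb were lower in 12Q than in 48Q, and Sfrp2 and Sfrp5 did not pass. All 5 genes were tested. In 12Q against WT 0 rose and 2 fell (11.2% each way over all tested genes), and in 48Q against WT 1 rose and 0 fell (3.95% and 1.23%). Between the tumor genotypes, 3 of 5 were lower in 12Q than in 48Q (3.16% of all tested genes) while 0 were higher (1.01%). Only in 48Q were both libraries of Sfrp4 and Sfrp5 past the level of the filter on low counts. For Sfrp4 the group with the higher level decided that it was tested, while Sfrp5 was also past that level in 12Q replicate 2 and WT replicate 2. The counts of 0 are from edgeR, and DESeq2, limma-voom and an unadjusted p under 0.05 gave 0 in the same places. Sfrp1 (chr8:23411502-23449632), a stromal antagonist of prostate and many other organs, was at 0.222 and 0.557 CPM in 12Q, 83.7 and 104 CPM in 48Q, and 6.31 and 19.8 CPM in WT. The groups were apart, with WT between the tumor genotypes. Sfrp1 fell in 12Q against WT by 5.03 on the log2 scale (SE 0.71, edgeR adjusted p = 0.00823) and was lower in 12Q than in 48Q by a log2 difference of -7.87 (SE 0.79, 234-fold, edgeR adjusted p = 0.0165). The 48Q minus WT value of 2.85 did not pass (edgeR adjusted p = 0.0513). Against WT the 12Q call held under all 13 alternatives, at -5.84 without 12Q replicate 2, -5.62 without WT replicate 1 and -3.98 without WT replicate 2. Against 48Q it was lost without 12Q replicate 1 (0.0561) or 12Q replicate 2 (-8.69, 0.0588).

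Frzb (chr2:80411970-80447396), known as an antagonist of cartilage and joint, was at 0.703 and 0.681 CPM in 12Q, 4.82 and 14.7 CPM in 48Q, and 0.782 and 0.707 CPM in WT. Only the 48Q libraries stood above 1 CPM, and these were 3.06-fold apart. Frzb rose in 48Q against WT by 3.71 on the log2 scale (SE 0.69, 13.1-fold, edgeR adjusted p = 0.0399) and was lower in 12Q than in 48Q by a log2 difference of -3.81 (SE 0.69, edgeR adjusted p = 0.0406). Its 12Q minus WT value was -0.10 (edgeR adjusted p = 0.924). The call against WT was lost without 48Q replicate 1 (4.30, 0.0649), 48Q replicate 2 (2.68, 0.31), WT replicate 1 (0.16) or WT replicate 2 (0.0867), and with limma-voom (0.0655). The call between the tumor genotypes was lost when any 1 library was left out. Its value was -2.79 without 48Q replicate 2 and -4.40 without 48Q replicate 1. That call was also lost with limma-voom (adjusted p = 0.0515) and with the compared groups only (edgeR adjusted p = 0.0537).

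Sfrp4 had 0 and 1 counts in the 12Q libraries (0 and 0.0309 CPM), beside 1.60 and 2.25 CPM in 48Q and 0.365 and 0.575 CPM in WT. Its CPM ratio of 12Q to WT was 0.0352, with an exact 95% interval of 0.00085 to 0.22 for counting error only (edgeR adjusted p = 0.0287), and its ratio of 12Q to 48Q was 0.00872, with an interval of 0.000219 to 0.0494 (edgeR adjusted p = 0.0297). Sfrp4 thus fell in both comparisons, but the call against WT was lost without any 1 of the 6 libraries (0.0511 to 0.0903). The call against 48Q was lost without 12Q replicate 1 (0.0773), 12Q replicate 2 (0.0735), 48Q replicate 1 (0.149) or 48Q replicate 2 (0.138). Sfrp2, at 7.99 and 1.98 CPM in 12Q, 20.7 and 15.1 CPM in 48Q, and 1.83 and 13.6 CPM in WT, passed in no comparison; its WT replicates were 7.44-fold apart. Sfrp5 was between 0.148 and 1.95 CPM.

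Beside the values of Sfrp1, Ror1, Sfrp4 and Frzb, markers of stroma and basal epithelium also differed between the groups. Over all tested genes, 11.2% were higher and 11.2% lower in 12Q than in WT. The same shares were 3.95% and 1.23% in 48Q against WT, and 1.01% and 3.16% in 12Q against 48Q. The 10 smooth muscle markers summed to 128 and 127 CPM in 12Q, 1065 and 413 CPM in 48Q, and 2790 and 7321 CPM in WT, with 10 of 10 lower in 12Q than in WT, 5 of 10 lower in 12Q than in 48Q, and none at 0. The 12 fibroblast markers summed to 221 and 1362 CPM in 12Q, 1807 and 1586 CPM in 48Q, and 836 and 921 CPM in WT; 6 of 12 were lower in 12Q than in WT and 6 of 12 lower than in 48Q, and Dpt was at 0 in 12Q. C3 alone was at 874 CPM in 12Q replicate 2. The 10 basal markers summed to 768 and 1039 CPM in 12Q, 1251 and 1276 CPM in 48Q, and 1957 and 1170 CPM in WT, and 6 of 10 were lower and 2 higher in 12Q than in WT, and 5 of 10 lower in 12Q than in 48Q. In 48Q tumors, where Sfrp1, Ror1 and Sfrp4 levels lay above WT without passing in edgeR, the smooth muscle sum lay below WT with 3 of 10 markers lower, and the fibroblast sum lay above WT with 1 of 12 markers higher. DESeq2 and limma-voom both called Sfrp1 and Ror1 higher in 48Q than in WT. The part of these marker lists in the result was not tested. Seminal vesicle markers, another tissue next to the prostate, summed to 25.98 and 49.2 CPM in 48Q and to at most 2.44 CPM in the other 4 libraries.

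**Figure D3:**
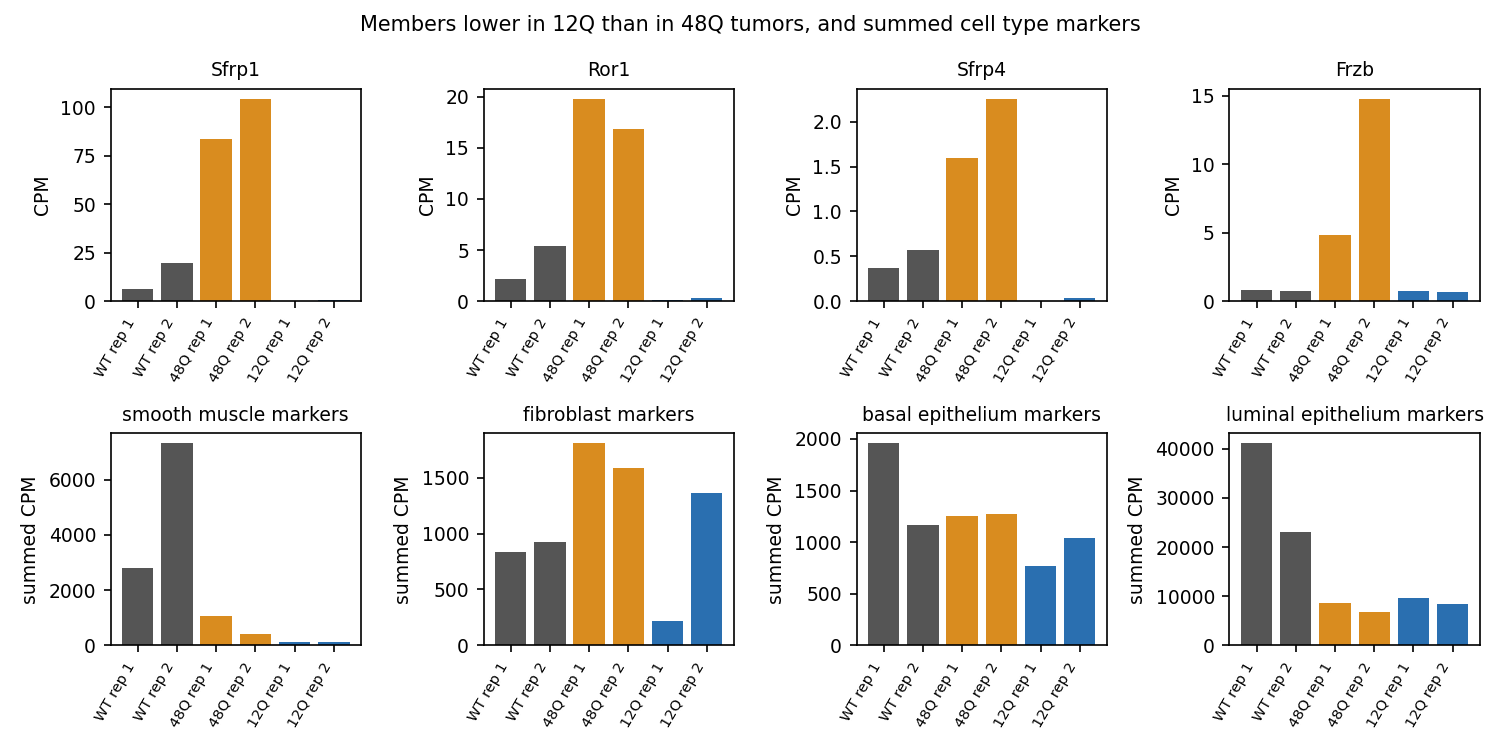
CPM of Sfrp1, Ror1, Sfrp4 and Frzb beside the summed CPM of 4 marker lists, by library. The 12Q libraries hold the lowest Sfrp1, Ror1 and smooth muscle values, and the 48Q libraries hold the highest Sfrp1, Ror1 and Frzb values with smooth muscle sums of 1065 and 413 CPM, below WT.

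Dkk2 (chr3:132085292-132180304), a Dickkopf protein that binds LRP coreceptors, had the largest fitted log2 fold change against WT of the 33 tested genes other than Wnt16, whose WT libraries were at 0. It was at 489 and 697 CPM in 12Q, 539 and 626 CPM in 48Q, and 0.835 and 2.83 CPM in WT. The tumor genotypes overlapped and all 4 tumor libraries lay far above WT. Dkk2 rose by 8.32 on the log2 scale in 12Q (SE 0.70, 319-fold, edgeR adjusted p = 0.00294) and by 8.29 in 48Q (SE 0.70, 314-fold, edgeR adjusted p = 0.00975), and the 12Q minus 48Q value was 0.03 (0.98). In 12Q the call held under all 13 alternatives, at 7.71 without WT replicate 1 and 9.46 without WT replicate 2. In 48Q the call was lost without WT replicate 1 (7.68, edgeR adjusted p = 0.0669), and the value was 9.43 without WT replicate 2.

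Dkk3 (chr7:112116019-112159057), a divergent member of the family that does not act on LRP coreceptors as the others do, was at 67.4 and 37.7 CPM in 12Q, 53.2 and 35.9 CPM in 48Q, and 2.76 and 12.1 CPM in WT. All 4 tumor libraries lay above WT. Dkk3 rose in 12Q by 2.81 on the log2 scale (SE 0.71, 7.04-fold, edgeR adjusted p = 0.036), and its 48Q value of 2.58 did not pass (0.0851). DESeq2 called Dkk3 higher in 48Q than in WT, and limma-voom did not. The 12Q call was lost with the compared groups only (edgeR adjusted p = 0.0548). It was also lost without 12Q replicate 1, 12Q replicate 2 or WT replicate 1 (2.12), and the value was 4.24 without WT replicate 2. Dkk1, the best-studied LRP antagonist and a gene with the motif letters in its window, was not tested: 42 of its 49 counts were in 12Q replicate 2. Dkk4 had 0 counts.

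Summed over the 9 antagonists, levels were 156 and 202 RPKM in 12Q (179 ± 32.6, SD, n = 2), 194 and 217 RPKM in 48Q (205 ± 16.5, SD, n = 2), and 3.87 and 16.4 RPKM in WT (10.1 ± 8.83, SD, n = 2). The tumor genotypes overlapped, and both lay above WT. Dkk2 made up 84.4% and 93.0% of the 12Q sums, 75.2% and 77.9% of the 48Q sums, and 5.82% and 4.67% of the WT sums. Sfrp1 made up 0.0325% and 0.0630% of the 12Q sums, 9.89% and 10.99% of the 48Q sums, and 37.3% and 27.7% of the WT sums.

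**Figure D4:**
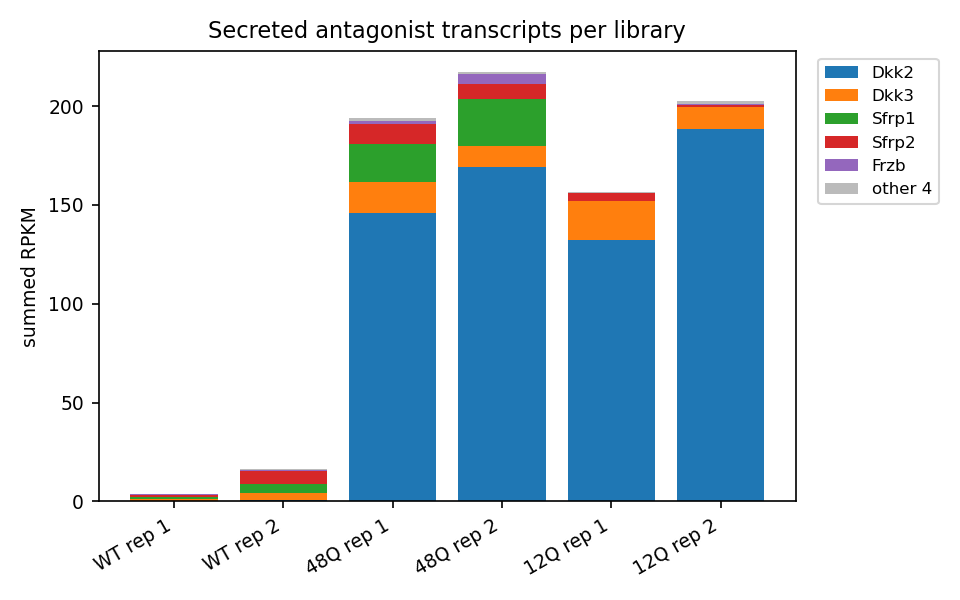
Summed RPKM of the 9 secreted antagonist genes (y axis, from 0) in each library (x axis), with each bar split by gene. Dkk2 fills most of each tumor bar (75.2% to 93.0%), the Sfrp1 segment is visible in 48Q and not in 12Q, and the WT bars reach 3.87 and 16.4.

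**Figure D5:**
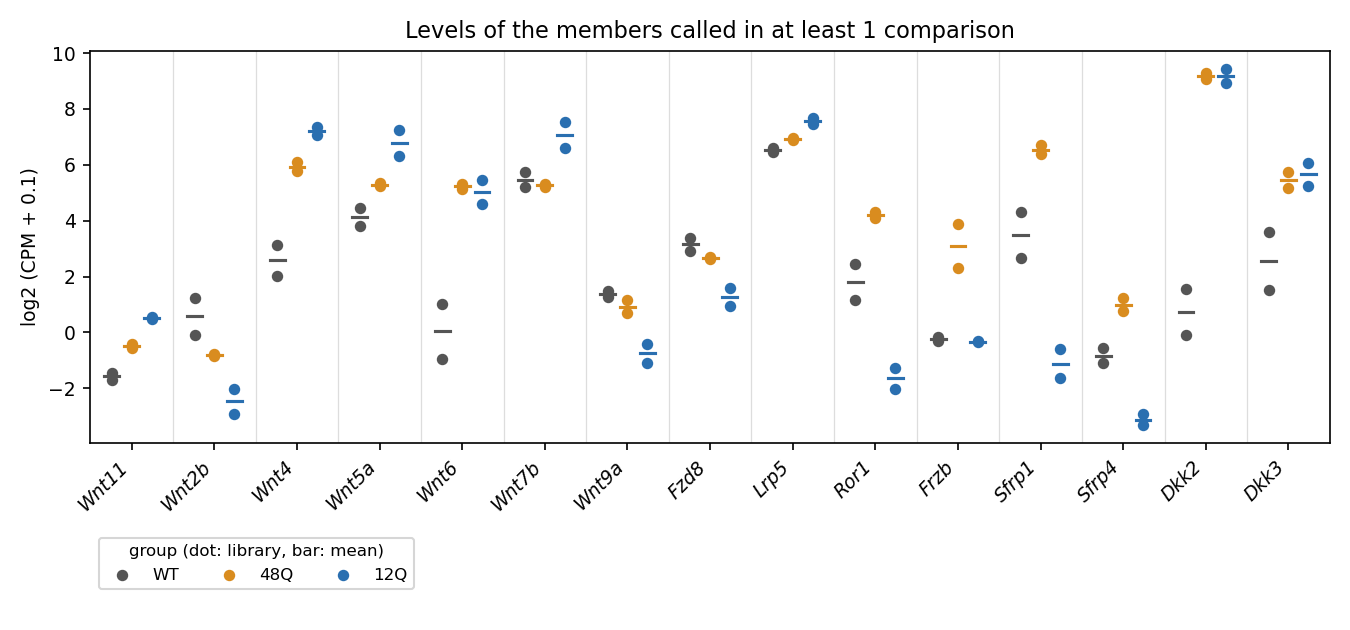
Levels of the 15 genes that passed in at least 1 of the 3 comparisons, as log2(CPM + 0.1), with a dot for each library and a bar for each group mean. The 12Q and 48Q dots lie together for Dkk2, Wnt6 and Dkk3, and far apart for Sfrp1, Ror1 and Sfrp4.

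Markers of squamous and hair epithelium, of blood vessels and of macrophages also differed from WT, beside the rises of Dkk2, Wnt4 and Wnt6 in both tumor genotypes and of Dkk3, Wnt5a, Wnt7b and Wnt11 in 12Q. Over all tested genes, 11.2% rose and 11.2% fell in 12Q, and 3.95% rose and 1.23% fell in 48Q. Of the 14 squamous and hair markers 11 were tested, and 7 rose in 12Q and 5 in 48Q against WT; the list summed to 298 and 419 CPM in 12Q, 109 and 109 CPM in 48Q, and 229 and 6.72 CPM in WT, where 6 of 14 were at 0, so the sums of 48Q lay between those of the WT libraries. The keratinocyte gene Sprr1a alone was at 226 CPM in WT replicate 1. The 9 endothelial markers, of which 5 rose and 1 fell in 12Q and 0 rose and 1 fell in 48Q, summed to 316 and 346 CPM in 12Q, 172 and 180 CPM in 48Q, and 85.4 and 129 CPM in WT. The 0 in 48Q is from edgeR and limma-voom, beside 3 with DESeq2 and 4 at an unadjusted p under 0.05. The 10 macrophage markers, of which 6 rose in each tumor genotype and 1 fell in 12Q, summed to 311 to 573 CPM in tumors and 106 to 137 CPM in WT. Their part in the result was not tested.

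The WT replicates differed in several of the genes. Of the 33 tested genes, 13 were over 2-fold higher in WT replicate 2 than in replicate 1 and 2 were over 2-fold lower, beside 21.1% and 6.70% of all tested genes. The marker sums differed too: the ratio of WT replicate 2 to replicate 1 was 2.62 for smooth muscle, 5.19 for adipocytes, 3.08 for T and NK cells, 2.71 for skeletal muscle, 2.27 for red blood cells, 0.561 for luminal epithelium and 0.0294 for the squamous and hair list. The skeletal muscle sums in WT replicates 1 and 2, 74.6 and 202 CPM, were mostly Acta1, at 70.4 and 193 CPM. Adipocyte sums were low, at 1.72 and 8.93 CPM, and mostly Fabp4, at 1.72 and 7.03 CPM. Those of T and NK cells were 2.24 and 6.90 CPM. Among the genes that passed, the ratio of replicate 2 to replicate 1 was 4.66 for Wnt6, 4.38 for Dkk3, 3.39 for Dkk2, 3.13 for Sfrp1 and 2.52 for Ror1. The part of the marker differences in these ratios was not tested.

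Other genes of the pathway, from lists by function, were measured in the same fit. The shares over all tested genes, against which the counts are to be read, were 11.2% higher and 11.2% lower in 12Q, 3.95% higher and 1.23% lower in 48Q, and 1.01% higher and 3.16% lower in 12Q than in 48Q. Among 11 genes of Wnt secretion and extracellular handling, 2 rose (18.2%) and 4 fell (36.4%) in 12Q against WT, 1 rose in 48Q (9.09%), and 2 (18.2%) were lower in 12Q than in 48Q. Notum, the enzyme that removes the Wnt lipid, was at 39.2 and 59.5 CPM in 12Q, 123 and 102 CPM in 48Q, and 1.04 and 3.14 CPM in WT (log2 differences of 4.55 and 5.74 against WT, edgeR adjusted p = 0.00572 and 0.0108). The 48Q call of Notum was lost without WT replicate 1 (0.0669), and without WT replicate 2 its values were 5.55 in 12Q and 6.74 in 48Q. The glypican Gpc3, a cell surface proteoglycan, was at 0.481 and 0.433 CPM in 12Q, 10.5 and 6.56 CPM in 48Q, and 9.60 and 8.22 CPM in WT. Gpc3 fell in 12Q against WT by 4.27 on the log2 scale (edgeR adjusted p = 0.00519) under all alternatives, and by 4.21 against 48Q (0.0213), a call lost without 12Q replicate 1 (0.0583), 12Q replicate 2 (0.0687) or 48Q replicate 1 (0.107). Gpc4 was at 0.925 and 1.64 CPM in 12Q, 21.1 and 13.6 CPM in 48Q, and 5.11 and 13.2 CPM in WT; its falls in 12Q (-2.83 and -3.75, edgeR adjusted p = 0.0247 and 0.0365) were lost without 12Q replicate 1 (0.0872 and 0.105) or 12Q replicate 2 (0.0637 and 0.0829). The first was also lost with the compared groups only (edgeR adjusted p = 0.059) and without WT replicate 2 (-1.99). The second was also lost without either 48Q library.

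R-spondins are secreted amplifiers of Wnt signals that act by removing the ligases Znrf3 and Rnf43 from the cell surface. Of 8 tested genes of that group, 1 rose (12.5%) and 3 fell (37.5%) in 12Q against WT, 1 rose and 1 fell in 48Q (12.5% each), and 1 (12.5%) was lower in 12Q than in 48Q. Rspo3 had 0 and 0.0619 CPM in 12Q, 9.48 and 4.71 CPM in 48Q, and 13.2 and 37.5 CPM in WT. The CPM ratio of 12Q to WT was 0.00128 (exact 95% interval 0.000155 to 0.00463, edgeR adjusted p = 0.00526), and that of 12Q to 48Q was 0.00479 (0.000579 to 0.0174, edgeR adjusted p = 0.0255), the latter call lost without 12Q replicate 1 (0.0806), 12Q replicate 2 (0.0735) or 48Q replicate 1 (0.0816). Rspo2 had 0 counts in 12Q and 171 in WT, at least 40.5-fold lower against a floor of 3 counts per 12Q library (edgeR adjusted p = 0.0108). Rspo2 also fell in 48Q (0.120 and 0.0570 CPM beside 2.09 and 5.79 CPM in WT, a log2 difference of -5.41, edgeR adjusted p = 0.0438). That call was lost with the replicate number as a block (edgeR adjusted p = 0.0571). It was also lost without 48Q replicate 1 (-6.0), 48Q replicate 2, WT replicate 1 or WT replicate 2 (-4.51). Znrf3 was at 153 and 166 CPM in 12Q, 292 and 293 CPM in 48Q, and 42.5 and 91.2 CPM in WT, and rose in 48Q by 2.13 on the log2 scale (edgeR adjusted p = 0.0379), a call lost without 48Q replicate 1 (0.129), 48Q replicate 2 (0.158) or WT replicate 1 (0.0877); without WT replicate 2 the value was 2.77.

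Of 13 tested genes listed under other antagonists, 4 rose (30.8%) and 1 fell (7.69%) in 12Q, and 3 rose in 48Q (23.1%). Bambi is counted among those that rose in both, and its place on the list does not show that it is a Wnt antagonist. Its log2 fold changes against WT were 3.79 in 12Q and 2.53 in 48Q (edgeR adjusted p = 0.00571 and 0.0329). The 48Q call of Bambi was lost with limma-voom (adjusted p = 0.0614) and when some single libraries were dropped. Apcdd1, a membrane inhibitor of Wnt signals, was at 555 and 571 CPM in 12Q, 682 and 571 CPM in 48Q, and 3.65 and 18.7 CPM in WT (5.65 and 5.80 on the log2 scale against WT, edgeR adjusted p = 0.00823 and 0.0227). Without WT replicate 1 its values were 4.91 and 5.06, of which the 48Q call was lost (0.0669), and without WT replicate 2 they were 7.26 and 7.41. Of 16 tested genes listed under planar cell polarity, 2 rose (12.5%) and 1 fell (6.25%) in 12Q, near or below the 11.2% of all genes. In 48Q, 1 rose (6.25% beside 3.95%). The gene that fell was Reck, which is not itself a planar cell polarity gene. Reck was at 0.518 and 0.650 CPM in 12Q, 8.25 and 4.76 CPM in 48Q, and 4.49 and 18.8 CPM in WT. Its log2 fold change was -4.30 in 12Q against WT (edgeR adjusted p = 0.0172), a call lost without 12Q replicate 1 (-4.10) or 12Q replicate 2 (-4.47). Vangl1 was at 85.7 and 122 CPM in 12Q, 57.8 and 60.3 CPM in 48Q, and 21.6 and 22.9 CPM in WT. Vangl1 rose by 2.22 in 12Q on the log2 scale (edgeR adjusted p = 0.00497) under all alternatives and by 1.41 in 48Q (0.0341), the latter lost without 48Q replicate 1 (0.176), 48Q replicate 2 (0.22), WT replicate 1 (0.138) or WT replicate 2 (0.0639).

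Of 21 tested cytoplasmic components, 1 rose and 1 fell in 12Q against WT and 1 was lower in 12Q than in 48Q (4.76% each, at 11.2%, 11.2% and 3.16% of all genes). The gene that fell in both was Dact3, an inhibitor acting on Dishevelled, at 0.222 and 0.186 CPM in 12Q, 7.02 and 3.99 CPM in 48Q, and 3.76 and 15.4 CPM in WT. Its log2 fold change was -5.53 against WT (edgeR adjusted p = 0.0113), lost without 12Q replicate 2 (0.0614), with -6.21 without WT replicate 1 and -4.18 without WT replicate 2. Against 48Q it was -4.73 (edgeR adjusted p = 0.0425), lost without 12Q replicate 1, 12Q replicate 2, 48Q replicate 1 or 48Q replicate 2. That call was also lost with library totals in edgeR and with limma-voom (adjusted p = 0.0554 in each). Of 19 nuclear factors and common targets, 5 rose (26.3%) and 1 fell (5.26%) in 12Q and 2 rose in 48Q (10.5%). Axin2, a feedback inhibitor widely used as a readout of the β-catenin branch, was at 471 and 771 CPM in 12Q, 614 and 562 CPM in 48Q, and 171 and 173 CPM in WT. Axin2 rose by 1.85 in 12Q (edgeR adjusted p = 0.0143) and by 1.77 in 48Q (0.0394) on the log2 scale, the first lost without WT replicate 1 (0.0519) and the second without 48Q replicate 1 (0.213), 48Q replicate 2 (0.216), WT replicate 1 (0.149) or WT replicate 2 (0.0731).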

How the data were processed

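RNA from mouse prostate was measured in 6 libraries, extracted with RNA-Bee and made into libraries with a Kapa HyperPrep kit, per the labels' protocols. The authors deposited 1 table of raw read counts, in whole numbers per gene and library, with no normalization. Per the submitters' processing notes, TopHat2 2.0.14, HTSeq 0.6.0 and mm10 were used. For the gene annotation, the strand setting and reads with several matches, the method is not given in the sources used here. Because exons of Fzd5, Fzd6, Sfrp2, Wnt11, Wnt5a and Wnt7b, and of Axin2, Notum, Rspo3 and Vangl1, overlap another gene in GENCODE M21, their values are uncertain. Coordinates are those of the table; 0 of its columns matched no sample.

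Low genes were removed with filterByExpr of edgeR, at a minimum count of 10 and a minimum total of 15, and counts were scaled by TMM. The main test was edgeR 4.0.16's quasi-likelihood test (R 4.3.3) on all 6 libraries in 1 fit of 3 groups, with Benjamini-Hochberg adjustment over all 15050 genes tested. The biological coefficient of variation was 0.378 with 3 residual degrees of freedom. RPKM is CPM divided by the table's gene length. A gene with 3 counts or fewer in a group is given as a bound against a floor of 3 counts per library, or as a ratio with an exact binomial 95% interval, which covers counting error only. Of the 33 tested genes, 24 were past the filter level in both libraries of all 3 groups. Wnt6 and Wnt11 were past it in both libraries of 12Q and of 48Q only. Ror1, Sfrp1, Wnt2b and Wnt10b were past it in both libraries of WT and of 48Q only. Sfrp4, Sfrp5 and Wnt16 were past it in both libraries of 48Q only. Counts over tested genes are therefore not counts over all 43. The scripts were tested on simulated data.

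Values per library are given for genes past the threshold in at least 1 comparison or with a mean of at least 10 CPM in 1 group. Other pathway genes are named by the number of comparisons passed, then by mean CPM, at most 3 per list. Alternatives were DESeq2's size factors, library totals, no filter, DESeq2 1.42.0, limma-voom (limma 3.58.1), the compared groups only, a replicate block, and each library left out; with a library left out its group has 1 sample, which is assumed to vary like the other groups. The genes and lists were chosen with earlier results of these data known.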

Additional observations from a re-analysis of the deposited data

Results flagged for a closer look

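In 5 genes the difference of 12Q tumors from WT itself differed from that of 48Q tumors, by the direct edgeR test of 12Q against 48Q. Sfrp1 (log2 difference -7.87), Ror1 (-6.28) and Frzb (-3.81) were lower in 12Q, as was Sfrp4, with a CPM ratio of 0.00872. For Sfrp4 the group with the higher level, 48Q, decided that it was tested, which limits what its call shows. Wnt7b was higher in 12Q by 1.88. Both 12Q libraries lay beyond both 48Q libraries for each of these genes, and each call was lost without at least 1 library, as given with the gene.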

How the results depend on the processing

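Of the 23 calls over the 3 comparisons, 6 were kept under all 13 alternatives (Dkk2, Ror1, Sfrp1, Wnt4, Wnt5a and Wnt6 in 12Q against WT), 17 were lost under at least 1, and 0 were reversed. In 12Q against WT, 14 genes were called, 6 with the compared groups only, and 6 to 12 with 1 library left out. In 48Q against WT, 4 were called, 12 with library totals, 7 with no filter, 11 with DESeq2, 7 with limma-voom, 7 with the compared groups only, and 0 to 7 with 1 library left out. In 12Q against 48Q, 5 were called, 12 with DESeq2 and 0 to 4 with 1 library left out. Library totals moved the all-gene medians of log2 fold changes to 0.48, 0.71 and -0.19, and the split of higher and lower calls to 10 and 4 in 12Q against WT and to 0 and 4 in 12Q against 48Q. Calls over all tested genes moved too. In 48Q against WT they were 595 higher and 185 lower in the main fit, and 698 and 214 with no filter. Limma-voom gave 639 and 250 there, and the compared groups only gave 828 and 342. In 12Q against WT the compared groups only gave 997 and 890, beside 1687 and 1683 in the main fit. The cause of these shifts was not tested.

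With the replicate number as a block (replicate block), 12, 6 and 5 genes were called in the 3 comparisons. It lost Wnt11 (adjusted p = 0.0766) and Wnt9a (0.0631) in 12Q against WT and Wnt7b in 12Q against 48Q (0.0524) in edgeR. The labels' numbers name samples only: replicate differences correlated at 0.148 between WT and 12Q, -0.0946 between WT and 48Q, and 0.0339 between 12Q and 48Q. Sfrp4 had 1 count in 12Q and 20 in WT, so its interval is wide.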

Other observations

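Besides Wnt6 and Wnt10a, 3 pairs of Wnt genes stand next to each other in the table's coordinates: Wnt10b and Wnt1 (11.7 kb apart), Wnt3a and Wnt9a (16.2 kb apart), and Wnt9b and Wnt3 (24.4 kb apart). In each of these 3 pairs at least 1 gene had too few counts to be tested: Wnt1 had 1 count over all 6 libraries, Wnt3a had 6, Wnt9b had 4 and Wnt3 had 2. Wnt10b and Wnt9a were tested, and Wnt9a was the one that passed, in 12Q against WT.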
